A study of Mus musculus with 7 samples.

Results

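The genes described here are 10 receptors for growth factors of blood cells: Csf3r, Csf2ra, Csf2rb, Csf2rb2, Csf1r, Il6ra, Il3ra, Il7r, Epor and Kit. They were taken by gene name from a deposited expression table of 50435 gene rows, in which each name occurred once. The libraries are RNA of mouse marrow cells sorted under the name sinusoidal endothelial cells, which line the venous vessels of that tissue. The sort kept CD31-positive cells negative for Sca1 and for the lineage antigens CD45, Ter119, Gr1 and CD11b. All mice were irradiated wild-type recipients of Zbtb46dtr bone marrow, in which the diphtheria toxin receptor follows Zbtb46, a gene of classical dendritic cells. At 8 weeks, the mice of 3 samples received 200 ng of diphtheria toxin (DT), meant to kill those dendritic cells, and the mice of 4 samples received PBS alone. Marrow was taken 1 day later. Only the transplanted blood cells carried the receptor gene, and both groups carried it, so no group without the Zbtb46dtr graft was compared. The recipients' age and strain were not stated in the labels.

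Hematopoietic growth factors reach cells through a small set of surface receptors, and most blood lineages can be recognised by the receptors they carry. Most of the 10 belong to the cytokine receptor family, which has no enzyme activity of its own and signals through JAK kinases and STAT transcription factors. Csf1r and Kit are instead receptor tyrosine kinases. Csf3r is the receptor for G-CSF on neutrophils and their precursors. Csf2ra and Il3ra are the ligand-binding chains for GM-CSF and interleukin-3, and both pair with the shared signalling chain Csf2rb, while Csf2rb2 is a mouse copy of that chain used for interleukin-3 alone. Csf1r serves monocytes and macrophages, Il6ra binds interleukin-6 and signals through Il6st, Il7r serves B and T cell precursors, Epor serves erythroid precursors, and Kit, the receptor for stem cell factor, is carried by progenitors and mast cells.

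The values are RPM, reads scaled to a common total per library. The reads of a library, estimated from the most frequent low value taken as 1 read, ranged from 40400000 to 51200000 in DT and from 33200000 to 39100000 in PBS, so that 3 reads correspond to 0.0585 to 0.0904 RPM, which covers counting error only. Against the sort label, 13 genes restricted to endothelium summed to 10.7 to 18.7 RPM in DT and 3.87 to 12.5 RPM in PBS, whereas 15 neutrophil genes summed to 60198 to 64653 RPM in DT and 2067 to 4630 RPM in PBS. Classical dendritic cell genes, 10 in all, summed to 91.7 to 114 RPM in DT and 39.3 to 66.9 RPM in PBS, with Naaa and Ccr7 the most abundant. Zbtb46 itself lay the other way from the sum, at 0.0248, 3.12 and 1.56 RPM in DT, against 1.54, 17.5, 10.4 and 7.45 RPM in PBS. It missed the threshold with all libraries (limma, log2 change -1.89, adjusted p = 0.0556). PBS replicate 1 lay within the DT range of Zbtb46, and the other PBS libraries were above it. Without PBS replicate 1, 1 gene of the dendritic cell list fell. The receptor levels therefore describe the sorted samples as a whole and are not assigned to endothelial cells. One PBS library stood apart. In PBS replicate 1, 14 erythroid genes, leaving out Epor, summed to 1025 RPM, against 6915 to 11281 RPM in the other PBS libraries. Results on Epor, Kit, Car1, Car2, Gata1 and the number of erythroid falls are given with and without that library. The means of Hbb-bs, Hba-a1 and Alas2 are given with all PBS libraries only. In such bulk samples, fewer cells of a type and less RNA per cell cannot be told apart.

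The promoters of Csf3r, Csf2ra and Csf2rb2, which rose in DT, and of Epor, which fell, are shown. Each holds a match to a motif given below. Windows of other members are not shown, among them those of Il6ra and Kit, which also hold matches. Whether factors that bind these motifs had a part in the receptor changes was not tested. The windows run from 250 bases before to 50 bases after the start site, 5′ to 3′ on the gene's strand (RefSeq, GRCm38.p6, the assembly of mm10). They lie at chr4:126024409-126024708 on the plus strand for Csf3r, chr19:61228369-61228668 on the minus strand for Csf2ra, chr15:78305672-78305971 on the minus strand for Csf2rb2 and chr9:21963527-21963826 on the minus strand for Epor. Capitals mark GAGGAA, a core of sites for PU.1 and other ETS factors, and AGATAA, a site for GATA factors, each searched on both strands, so that they can also read TTCCTC and TTATCT.
Csf3r: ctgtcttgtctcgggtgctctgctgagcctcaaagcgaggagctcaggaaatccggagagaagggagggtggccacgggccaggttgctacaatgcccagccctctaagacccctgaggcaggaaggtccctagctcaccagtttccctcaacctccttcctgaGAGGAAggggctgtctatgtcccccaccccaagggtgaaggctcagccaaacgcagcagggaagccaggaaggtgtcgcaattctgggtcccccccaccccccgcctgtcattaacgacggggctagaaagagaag
Csf2ra: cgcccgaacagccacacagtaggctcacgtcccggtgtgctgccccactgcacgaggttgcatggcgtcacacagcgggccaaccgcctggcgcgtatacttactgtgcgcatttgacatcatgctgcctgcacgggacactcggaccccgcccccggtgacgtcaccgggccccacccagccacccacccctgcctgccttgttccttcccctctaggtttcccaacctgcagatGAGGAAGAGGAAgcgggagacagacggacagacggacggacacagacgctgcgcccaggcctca
Csf2rb2: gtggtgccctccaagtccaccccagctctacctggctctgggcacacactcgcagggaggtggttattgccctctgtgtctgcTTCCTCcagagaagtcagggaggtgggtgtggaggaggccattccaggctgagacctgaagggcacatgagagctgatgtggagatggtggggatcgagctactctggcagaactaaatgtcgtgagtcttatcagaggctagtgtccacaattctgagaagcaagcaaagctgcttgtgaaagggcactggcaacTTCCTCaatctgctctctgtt
Epor: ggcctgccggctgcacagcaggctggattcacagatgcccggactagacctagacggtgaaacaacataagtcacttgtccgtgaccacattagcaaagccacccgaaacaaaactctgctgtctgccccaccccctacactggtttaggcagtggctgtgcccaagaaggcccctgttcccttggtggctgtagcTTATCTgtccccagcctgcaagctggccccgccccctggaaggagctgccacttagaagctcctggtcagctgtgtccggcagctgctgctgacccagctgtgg
GAGGAA was found in the windows of 5 of the 8 members with a window (Csf3r, Csf2ra, Csf2rb2, Il6ra and Kit), against 28.3% of 32851 promoter windows of the same length. AGATAA was found in 2 of the 8, Epor and Il6ra, against 11.2% of all windows. TTGCNNAA, a site for C/EBP factors, was found in Il3ra and Il7r, against 10.8% of all windows. Csf2rb and Csf1r had no window in this search. The chromosome of Csf1r was skipped for the members but not for the 32851 windows. In Csf3r the match began at position -86 from the start site, in Epor at position -54, and in Csf2ra a pair of adjoining matches began at positions -14 and -8. No matches of the 3 motifs overlapped in these windows. Other forms of these sites were not searched. A match describes the letters only and is not evidence of binding.

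DT and PBS were compared to ask how the sorted samples differ 1 day after injection. Of the 10 receptor genes, 6 were higher and 2 lower in DT (limma on log2(RPM + 1), Benjamini-Hochberg adjusted p under 0.05 over the 14100 genes averaging 1 RPM or more, two-sided). Over all genes tested, 13.4% were higher and 18.6% were lower, 32% in all. The counts given below for lists of other genes are to be read beside these shares. Csf3r, Csf2rb, Csf1r, Csf2rb2, Csf2ra and Il6ra rose. Il7r and Epor fell, and Il3ra and Kit did not pass. The members' median log2 change was 1.86, against -0.23 over all genes tested. All 6 that rose had every DT library above every PBS library, which held for 16.1% of all genes, and Il7r had every DT library below every PBS library, which held for 24.7%; groups without overlap in either direction made up 40.9% of all genes, against 7 of the 10 receptors. Median-ratio scaling moved the median of all genes to -0.02 and the share of rises among all calls to 64.2%, against 41.9% as deposited, and left the members' counts at 6 and 2. The count of receptors lower was 1 without DT replicate 1 or 3 or PBS replicate 2, 3 or 4, where Epor missed the threshold. The count of receptors higher was 5 without any 1 DT library, without PBS replicate 3 or 4 and without a filter on low values, where Il6ra missed it.

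**Figure D1:**
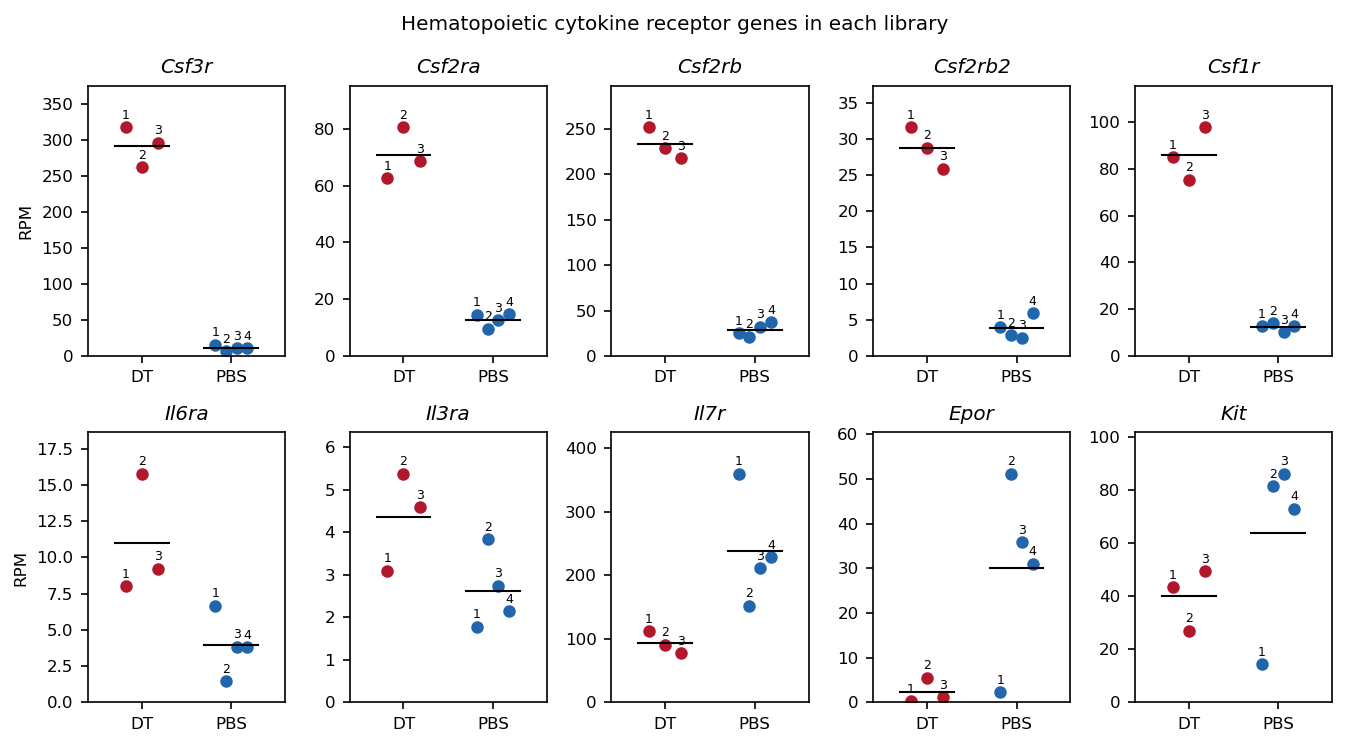
RPM of each of the 10 receptor genes in the 3 DT libraries (red) and 4 PBS libraries (blue), numbered by replicate, each panel from 0 on its own axis, with group means as black lines. DT and PBS do not overlap for Csf3r, Csf2ra, Csf2rb, Csf2rb2, Csf1r, Il6ra and Il7r, and PBS replicate 1 lies with or below the DT libraries for Epor and Kit.

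Csf3r, the G-CSF receptor (chr4:126024550-126044440, plus strand, mm10, GENCODE vM21), showed the largest change of the 10. It was at 318, 263 and 297 RPM in DT replicates 1 to 3, against 15.6, 6.91, 10.8 and 10.5 RPM in PBS replicates 1 to 4. Every DT library was far above every PBS library, and the highest PBS value was in replicate 1. The means were 293 ± 27.9 RPM in DT (SD, n = 3) and 10.9 ± 3.57 RPM in PBS (SD, n = 4), a 26.8-fold difference, with a log2 change of 4.67 ± 0.23 (SE; limma, adjusted p = 1.86e-06). It ranked 34 from the largest rise among the 14100 genes. Of its distinct 50-base stretches, the length of the reads, 10.7% also occur in transcripts of other genes, mostly in AC105061.2, a processed pseudogene. The 15 neutrophil markers all rose, with a median log2 change of 4.43, and their part in the change of Csf3r was not tested.

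Csf2ra, the GM-CSF binding chain (chr19:61223957-61228429, minus strand), was at 62.8, 80.7 and 68.8 RPM in DT, against 14.5, 9.58, 12.5 and 14.8 RPM in PBS. It rose 5.51-fold, with a log2 change of 2.38 ± 0.20 (SE; limma, adjusted p = 3.11e-05). Csf2rb, the shared signalling chain (chr15:78325752-78353847, plus strand), was at 252, 229 and 218 RPM in DT, against 25.1, 21.1, 32.3 and 37.4 RPM in PBS. It rose 8.05-fold, with a log2 change of 3.00 ± 0.20 (SE; limma, adjusted p = 6.04e-06). In both genes the 3 DT libraries lay close together and well above PBS.

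Csf2rb2, the interleukin-3 specific copy, is the neighbour of Csf2rb on the opposite strand (chr15:78282507-78305721, minus strand). It was at 31.6, 28.8 and 25.9 RPM in DT, against 3.95, 2.90, 2.53 and 5.89 RPM in PBS, and rose 7.54-fold, with a log2 change of 2.67 ± 0.29 (SE; limma, adjusted p = 0.000129). The copies share 892 distinct 50-base stretches, which are 12.3% of those of Csf2rb and 18.4% of those of Csf2rb2, so part of the reads of one could be counted for the other and both values are uncertain to that extent. Il3ra, the interleukin-3 binding chain (chr14:14346275-14356011, plus strand), was at 3.09, 5.37 and 4.59 RPM in DT, against 1.78, 3.83, 2.74 and 2.15 RPM in PBS. The groups overlapped at these low levels and the difference missed the threshold, with a log2 change of 0.57 ± 0.31 (SE; limma, adjusted p = 0.188).

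Basophil genes were measured beside the interleukin-3 chains, since basophils depend on that cytokine. Of 10 mast cell and basophil genes, 6 were tested and 5 rose, or 3 without a filter on low values, and the list summed to 648 to 1525 RPM in DT and 22.0 to 190 RPM in PBS. Prss34 and Mcpt8, proteases of basophils, were the most abundant, at 836 ± 371 and 112 ± 49.6 RPM in DT (SD, n = 3) and 78.7 ± 66.6 and 14.97 ± 12.8 RPM in PBS (SD, n = 4). Cma1, Tpsb2, Tpsab1 and Mcpt4, proteases of mast cells, were at or under 3 reads in every library. Prss34 missed the threshold without DT replicate 1 (limma, adjusted p = 0.0632). The part of these genes in the receptor changes was not tested.

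Csf1r, the receptor for M-CSF on monocytes and macrophages (chr18:61100598-61132149, plus strand), was at 85.2, 75.5 and 97.9 RPM in DT, against 12.9, 14.1, 10.3 and 12.7 RPM in PBS. The groups lay far apart, and the log2 change was 2.69 ± 0.18 (SE; limma, adjusted p = 7.02e-06). Its exons overlap those of Hmgxb3 on the other strand over 15.1% of their length, and whether counting used the strand is not given in the sources used here. Hmgxb3 was lower in DT, at 7.31 ± 0.99 RPM against 15.6 ± 3.36 RPM in PBS, and so moved the other way. The 12 other monocyte and macrophage markers summed to 7117 to 8942 RPM in DT and 414 to 903 RPM in PBS. Lyz2 and Ly6c2, a myeloid lysozyme and a monocyte surface antigen, held most of that sum, and the part of these markers in the change of Csf1r was not tested.

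Il6ra, the interleukin-6 binding chain (chr3:89864059-89913196, minus strand), was at 8.02, 15.8 and 9.21 RPM in DT, against 6.66, 1.48, 3.85 and 3.80 RPM in PBS. The groups did not overlap, but the lowest DT value was close to the highest PBS value. Its log2 change was 1.33 ± 0.40 (SE; limma, adjusted p = 0.0308). The adjusted p was 0.0525, 0.126 and 0.0746 without DT replicate 1, 2 and 3, 0.0565 and 0.0598 without PBS replicate 3 and 4, and 0.107 without a filter on low values. Il6st, the signalling chain it needs, was at 7.77, 14.8 and 12.4 RPM in DT, against 7.56, 5.11, 7.72 and 4.86 RPM in PBS, and missed the threshold (limma, log2 change 0.77, adjusted p = 0.0736).

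Il7r, the interleukin-7 receptor chain of lymphoid precursors (chr15:9505788-9530176, minus strand), was at 112, 90.8 and 77.6 RPM in DT, against 359.6, 152, 211 and 228 RPM in PBS. All DT libraries were below all PBS libraries, and PBS replicate 1 had the highest value. The means were 93.5 ± 17.3 RPM in DT (SD, n = 3) and 238 ± 87.6 RPM in PBS (SD, n = 4). The log2 change was -1.28 ± 0.26 (SE; limma, adjusted p = 0.00512). Of 13 B-lineage markers, Il7r among them, 10 fell and 3 did not pass, with a median log2 change of -1.12. The number that fell was 8 with median-ratio scaling or without a filter on low values. It was 9 to 11 when a library was left out, and 1 rose without PBS replicate 1. The 12 without Il7r summed to 3443 to 3942 RPM in DT and 5539 to 8366 RPM in PBS. Cd79a, a signalling subunit of the B cell antigen receptor, averaged 718 ± 36.2 RPM in DT (SD, n = 3) and 1268 ± 258 RPM in PBS (SD, n = 4), and missed the threshold under median-ratio scaling (limma, adjusted p = 0.0643). T and natural killer cell genes lay the other way: 11 of 11 tested rose, with a median log2 change of 2.18. The list summed to 339 to 353 RPM in DT and 24.8 to 54.0 RPM in PBS. Nkg7 alone made up most of that sum, at 270 ± 20.8 RPM in DT and 28.0 ± 14.5 RPM in PBS. Klrb1c, the next most abundant, averaged 11.7 RPM in DT and 3.71 RPM in PBS. The part of either list in the value of Il7r was not tested. Il2rg, the chain with which Il7r pairs, was at 187 ± 24.98 RPM in DT and 123 ± 39.5 RPM in PBS and missed the threshold (limma, log2 change 0.66, adjusted p = 0.0845).

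**Figure D2:**
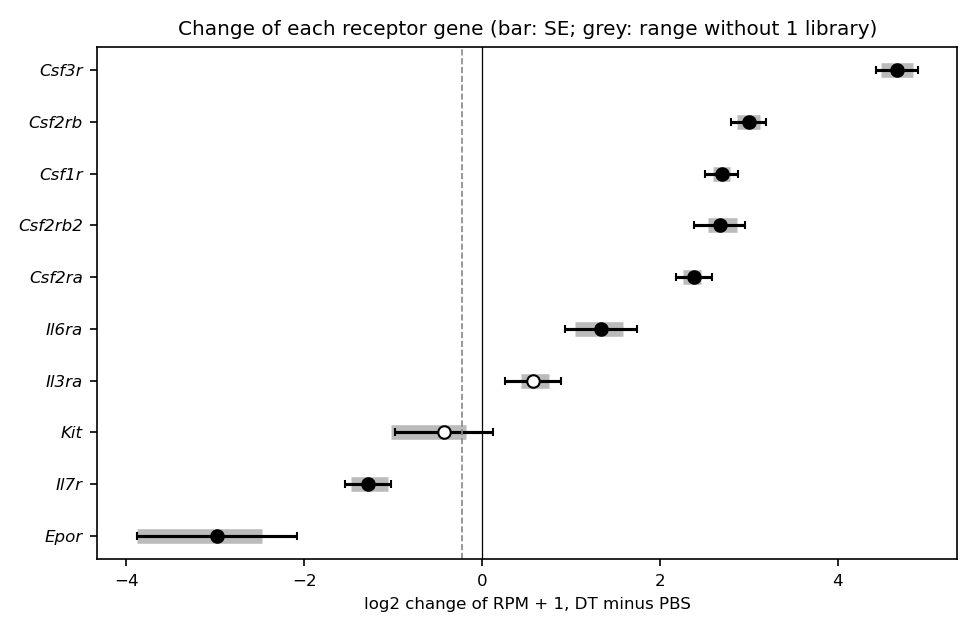
Log2 change of RPM + 1, DT minus PBS, for each receptor gene, with the standard error from limma as black bars, filled points for genes past the threshold and open points for the others. Grey bands span the values obtained when each library was left out in turn, and the dashed line is the median of all 14100 genes, at -0.23. Csf3r stands at 4.67 and Epor at -2.99, and the band of Kit runs to -1.03, its value without PBS replicate 1.

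Epor, the erythropoietin receptor (chr9:21958897-21963506, minus strand), was at 0.322, 5.56 and 1.19 RPM in DT, against 2.26, 51.2, 35.8 and 31.0 RPM in PBS. PBS replicate 1 lay within the DT range, and the other PBS libraries were well above it. The means were 2.36 ± 2.81 RPM in DT (SD, n = 3) and 30.1 ± 20.4 RPM in PBS (SD, n = 4), or 39.3 ± 10.5 RPM without PBS replicate 1 (SD, n = 3). The log2 change was -2.99 ± 0.90 (SE; limma, adjusted p = 0.0302), ranking 42 from the largest fall. Without PBS replicate 1 the log2 change was -3.89 ± 0.52 (SE; limma, adjusted p = 0.000379). It missed the threshold without DT replicate 1 or 3 (adjusted p = 0.115 and 0.0968), without PBS replicate 2, 3 or 4 (0.0713, 0.0748 and 0.0754), without a filter on low values (0.140) and with voom on estimated reads (0.190).

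Kit, the stem cell factor receptor (chr5:75574916-75656722, plus strand), was at 43.3, 27.0 and 49.5 RPM in DT, against 14.4, 81.4, 86.1 and 72.9 RPM in PBS. PBS replicate 1 was below every DT library, and the other PBS libraries were above all of them. With all libraries the difference missed the threshold, with a log2 change of -0.43 ± 0.55 (SE; limma, adjusted p = 0.576). Without PBS replicate 1 the PBS mean was 80.1 ± 6.67 RPM (SD, n = 3), the log2 change was -1.03 ± 0.22 and Kit was lower in DT (limma, adjusted p = 0.00462). Whether Kit passed thus depended on that 1 library.

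The 14 erythroid markers without Epor summed to 1571, 2084 and 1812 RPM in DT, against 1025, 11281, 7487 and 6915 RPM in PBS. The libraries low in this sum were those low in Epor, and PBS replicate 1 was the lowest of all in the sum and in Kit. The 2 globin genes made up most of the sum in DT, at 1205, 1618 and 1508 RPM, against 191, 627, 820 and 348 RPM in PBS. The other 12 genes summed to 366, 466 and 303 RPM in DT, against 834, 10654, 6667 and 6567 RPM in PBS, so that without the globins PBS replicate 1 lay above the DT libraries. Of the 15 erythroid markers 10 fell and 3 rose, Epor among the falls, while 5 fell and 1 rose without a filter on low values, 4 fell with voom and 12 fell without PBS replicate 1. The 3 that rose belong to late red cell maturation. Hbb-bs and Hba-a1, which encode globin chains, were at 991 ± 148 and 453 ± 66.2 RPM in DT (SD, n = 3) and 319.6 ± 182 and 177 ± 100.1 RPM in PBS (SD, n = 4). Alas2, the heme synthesis enzyme of red cells, was at 34.96 ± 4.10 RPM in DT and 7.30 ± 3.90 RPM in PBS. Car1 and Car2, carbonic anhydrases of red cell precursors, had the highest average over all 7 libraries and fell, at 75.9 ± 29.0 and 180 ± 48.2 RPM in DT (SD, n = 3) and 2160 ± 1420 and 3159 ± 2088 RPM in PBS (SD, n = 4), or 2803 ± 735 and 4073 ± 1237 RPM in PBS without replicate 1 (SD, n = 3). Gata1, the factor that binds AGATAA sites in erythroid genes, was at 8.14, 10.6 and 8.14 RPM in DT, against 14.8, 183, 129 and 103 RPM in PBS, where the mean without replicate 1 was 138 ± 41.2 RPM (SD, n = 3). Stem and progenitor markers moved both ways: of 8 tested, Kit among them, 3 rose and 1 fell, or 2 fell without PBS replicate 1 and 1 rose at a minimum mean of 5 RPM. Among them Myb, a factor of progenitors, fell to 136 ± 25.1 RPM in DT, against 398 ± 59.5 RPM in PBS, and in PBS replicate 1 it was at 485 RPM, the highest value of all libraries. The part of the erythroid genes in the values of Epor and Kit was not tested.

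**Figure D3:**
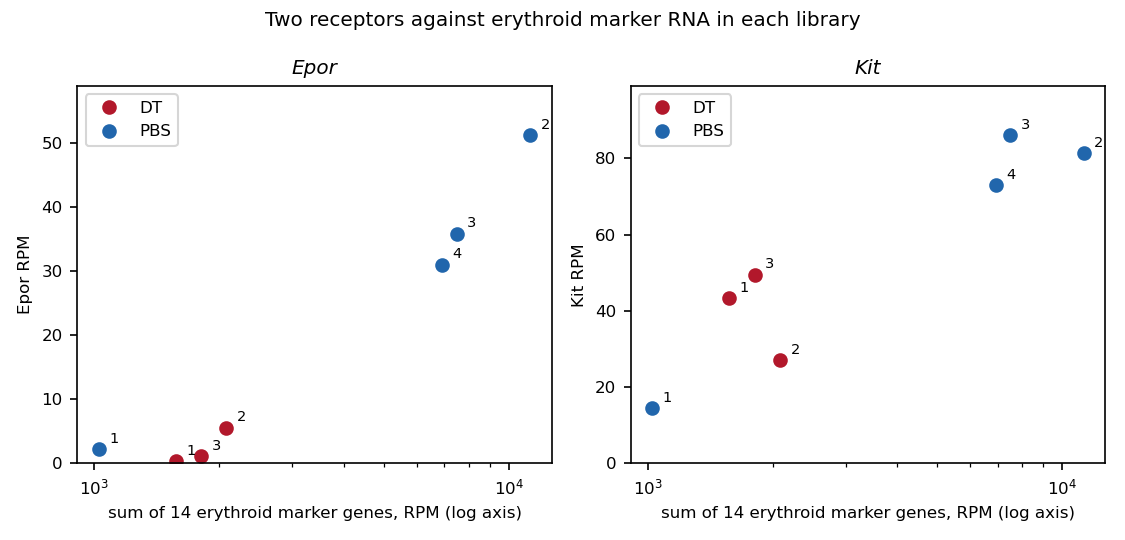
Epor (left) and Kit (right) in RPM against the summed RPM of 14 erythroid marker genes without Epor (2 globin genes included), on a log axis, in 3 DT libraries (red) and 4 PBS libraries (blue), numbered by replicate. PBS replicates 2 to 4 lie at 6915 to 11281 RPM of marker RNA and are highest for both receptors, while PBS replicate 1, at 1025 RPM, lies at 2.26 RPM of Epor and 14.4 RPM of Kit.

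Whether 1 receptor changed more than another was tested on the log2 ratio within each library for 5 pairs, by exact two-sided permutation over the 35 ways to assign the libraries, where the smallest p possible is 0.0286. The ratio of Csf3r to Csf1r was 1.76 ± 0.15 in DT (log2, SD, n = 3) and -0.22 ± 0.52 in PBS (log2, SD, n = 4), without overlap (exact p = 0.0286, 0.0714 after adjustment over the 5 pairs). The ratio of Csf2ra to Csf2rb was -1.71 ± 0.25 in DT and -1.10 ± 0.26 in PBS on the same scale (exact p = 0.0286, adjusted 0.0714). The ratio of Epor to Kit was -3.90 ± 1.58 in DT and -1.34 ± 0.66 in PBS (exact p = 0.0571, adjusted 0.0952), or -1.04 ± 0.33 in PBS without replicate 1 (SD, n = 3). The ratios of Csf2rb2 to Csf2rb and of Il6ra to Il6st differed by -0.32 and 0.56, DT minus PBS (exact p = 0.143 and 0.171, both 0.171 after adjustment). No pair passed the threshold after adjustment. With this smallest p, at least 3 of the 5 pairs would have had to reach it for any to pass, so the adjusted values say little about Csf3r over Csf1r and Csf2ra over Csf2rb, which were both at that p.

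Divided by exonic length, the order of the receptors differed between the groups. In DT, Csf3r was the most abundant at 81.1 ± 7.72 RPM per kb (SD, n = 3), followed by Csf2rb at 32.0 ± 2.38 and Csf2ra at 24.6 ± 3.17 RPM per kb. In PBS, Il7r was the most abundant at 51.0 ± 18.8 RPM per kb (SD, n = 4), followed by Epor at 15.1 ± 10.3 and Kit at 7.15 ± 3.74 RPM per kb, and Csf3r stood sixth at 3.03 ± 0.99 RPM per kb. In DT the ranges of Csf2ra, Il7r and Csf1r overlapped from each to the next, as did those of Csf2rb2 and Kit, and those of Il3ra, Il6ra and Epor. In PBS the ranges of Epor, Kit, Csf2ra, Csf2rb, Csf3r and Csf1r overlapped from each to the next, as did those of Il3ra, Csf2rb2 and Il6ra, so neighbours in that order are not separated. Without PBS replicate 1, Epor at 15.6 to 25.7, Kit at 8.18 to 9.66 and Csf2ra at 3.34 to 5.15 RPM per kb did not overlap. Il7r held 10.7% ± 1.57 of the summed level of the 10 receptors per length in DT (SD, n = 3) and 56.3% ± 16.4 in PBS (SD, n = 4). Csf3r held 43.3% ± 2.51 in DT and 3.36% ± 0.85 in PBS. The summed level itself was 181 to 197 RPM per kb in DT and 80.1 to 97.1 RPM per kb in PBS. These shares follow from the changes given above and are a description with no test.

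**Figure D4:**
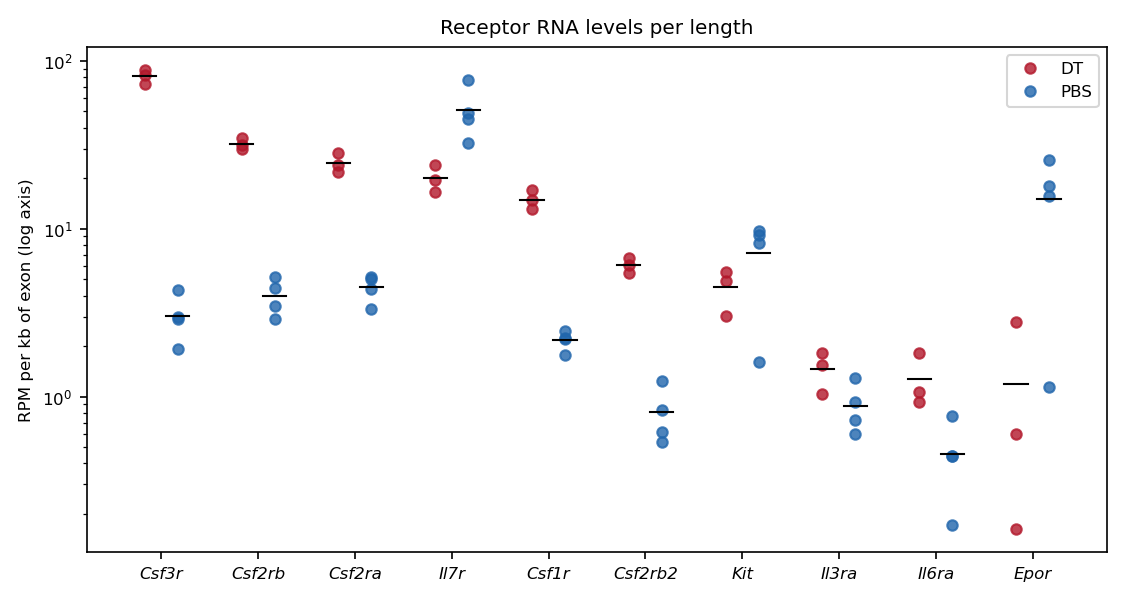
RPM per kb of exon, on a log axis, for the 10 receptor genes ordered by their DT mean, with the 3 DT libraries (red) left of the 4 PBS libraries (blue) and group means as black lines. Csf3r leads in DT at 81.1 RPM per kb and Il7r leads in PBS at 51.0 RPM per kb.

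Genes with the profile most like that of a receptor over the 7 libraries were taken by the smallest root mean square difference of centred log2(RPM + 1) values, as a description. For Csf3r these were Hp, Ngp and Mmp8, at differences of 0.15, 0.16 and 0.17. Hp encodes haptoglobin, and Ngp and Mmp8 are granule proteins of neutrophils. For Csf1r they were Adgrg3, Ms4a8a and Ralb, and for Csf2ra Ifnlr1, Evi2b and Dennd2d. For Csf2rb they were Dhrs7, Tnfrsf23 and Glipr2, and for Csf2rb2 Hcst, Nfil3 and Hpcal1. For Il7r they were Cecr2, Arid1b and Dcaf10, at 0.15 to 0.16. Epor had no close match, with Sh2d4a, Aqp1 and the erythroid factor Klf1 nearest at 0.36, 0.43 and 0.43. For Kit the nearest were Nle1, Syngr1 and Grwd1, at 0.18 to 0.25. For Il6ra they included Gpld1 and Dcun1d3, and for Il3ra they were Nxn, Gfi1 and Bst2.

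The ligands of these receptors were barely detected. Of 11 ligand genes only Csf1 passed the filter, at 8.19, 6.35 and 8.10 RPM in DT, against 5.24, 0.818, 7.22 and 5.12 RPM in PBS (limma, log2 change 0.80, adjusted p = 0.227). Csf3, Il34, Il3, Epo and Il5 were at or under 3 reads in every library. Il6 was at 0.643, 1.24 and 2.05 RPM in DT and at most 0.492 RPM in PBS. Csf2, which encodes GM-CSF, was at 0.198, 0.143 and 0.156 RPM in DT and listed at the offset of the table in all PBS libraries. The filter left the ligands other than Csf1 out of the main test. Without a filter on low values 7 ligand genes were tested and 2 were higher in DT, which are not named here.

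Of 28 partner and related receptor chains 22 were tested, and 11 rose and 0 fell, with a median log2 change of 0.77. That is 50% and 0%, against 13.4% and 18.6% of all genes. At an unadjusted p under 0.05, 1 fell, and 0 fell with voom. Il13ra1, a chain of the interleukin-13 receptor, was at 15.5, 19.7 and 20.9 RPM in DT and at most 1.05 RPM in PBS, and rose by 3.77 on the log2 scale (limma, adjusted p = 3.60e-05). Il4ra, its partner, rose 4.34-fold, Il2rb, a chain of the interleukin-2 and interleukin-15 receptors, 12.7-fold beside the rise of the T and natural killer cell genes, and Il10rb, a chain of the interleukin-10 receptor, 2.27-fold. The count of rises was 7, 6 and 7 without DT replicates 1, 2 and 3, and 1 chain fell without PBS replicate 2.

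Of the 11 JAK kinases and STAT factors 4 rose, all STATs, and 0 fell, as also at an unadjusted p under 0.05 and with voom. That is 36.4% and 0%, against 13.4% and 18.6% of all genes. Stat3, which acts downstream of Csf3r and Il6ra, was at 99.5 ± 4.597 RPM in DT (SD, n = 3) and 51.0 ± 9.02 RPM in PBS (SD, n = 4; limma, log2 change 0.96, adjusted p = 0.00202). Stat6, which serves Il4ra, rose 2.22-fold. Stat4 rose 2.51-fold and missed the threshold without any 1 DT library or without PBS replicate 3 (adjusted p from 0.0582 to 0.0830). Jak2 and Stat5a, used by Epor and Csf2rb, did not pass with all libraries. Stat5a averaged 23.1 ± 3.21 RPM in DT and 38.7 ± 16.3 RPM in PBS. By library it was at 26.8, 21.0 and 21.4 RPM in DT, against 17.9, 54.7, 34.1 and 47.9 RPM in PBS. PBS replicate 1 was thus below every DT library in Stat5a, and the other PBS libraries were above all of them. Of this list 1 gene fell without PBS replicate 1.

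Of 14 feedback inhibitors tested, 2 rose and 3 fell, which is 14.3% and 21.4%, near the 13.4% and 18.6% of all genes. Socs3, which shuts off Csf3r and Il6st signalling, was at 13.6, 11.5 and 14.6 RPM in DT and at 2.56 RPM or less in PBS, and rose by 3.21 on the log2 scale (limma, adjusted p = 0.000599). Ptpn6, a phosphatase that dampens Epor and Kit signalling, was at 446 ± 9.25 RPM in DT (SD, n = 3) and 151 ± 38.4 RPM in PBS (SD, n = 4; limma, adjusted p = 0.000328). Socs2 and Socs4 fell to 15.02 ± 2.02 and 10.5 ± 1.23 RPM in DT, against 37.4 ± 8.31 and 23.8 ± 2.92 RPM in PBS. The number of inhibitors higher was 4 under median-ratio or TMM scaling.

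Of 14 STAT and growth factor target genes 5 rose and 0 fell, as also at an unadjusted p under 0.05 and with voom. That is 35.7% and 0%, against 13.4% and 18.6% of all genes, and the median log2 change was 0.08. Id1, an inhibitor of basic helix-loop-helix factors, rose 12.2-fold, and Osm, a cytokine related to interleukin-6, was at 70.8 ± 25.3 RPM in DT (SD, n = 3) and 7.21 ± 2.93 RPM in PBS (SD, n = 4). Bcl2, a survival protein, rose 2.90-fold and Cebpb, a factor of emergency granulopoiesis, 4.84-fold. Without PBS replicate 1, 1 target gene fell. Of 18 receptor adaptors and kinases 4 rose and 3 fell, which is 22.2% and 16.7%, against 13.4% and 18.6% of all genes. Fgr, a Src family kinase of myeloid cells, rose 23.6-fold, and Dok2, an adaptor, 4.77-fold, while Gab1, another adaptor, fell to 1.12 ± 0.93 RPM in DT, against 8.23 ± 4.79 RPM in PBS. The number of adaptors and kinases that fell was 0 without a filter on low values, 1 without DT replicate 1 or 3 or PBS replicate 3, 5 without PBS replicate 1, and 1 under median-ratio, TMM or quantile scaling.

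Of 17 lineage transcription factors 4 rose and 10 fell, with a median log2 change of -0.75. That is 23.5% and 58.8%, against 13.4% and 18.6% of all genes. The number of these factors that fell was 7 without a filter on low values or with voom. It was 8 with median-ratio scaling and 8 to 10 when a library was left out. Spi1, which encodes PU.1 and acts on Csf1r and Csf3r, was at 85.3, 98.3 and 84.9 RPM in DT, against 30.2, 8.89, 25.3 and 18.0 RPM in PBS (limma, log2 change 2.19, adjusted p = 0.00131). Cebpe, a factor of late neutrophil precursors, was at 76.5 ± 3.72 RPM in DT (SD, n = 3) and 4.32 ± 1.63 RPM in PBS (SD, n = 4). Tcf3, which encodes the E2A factors of the B lineage, fell to 45.7 ± 6.37 RPM in DT, against 118 ± 7.66 RPM in PBS.

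**Figure D5:**
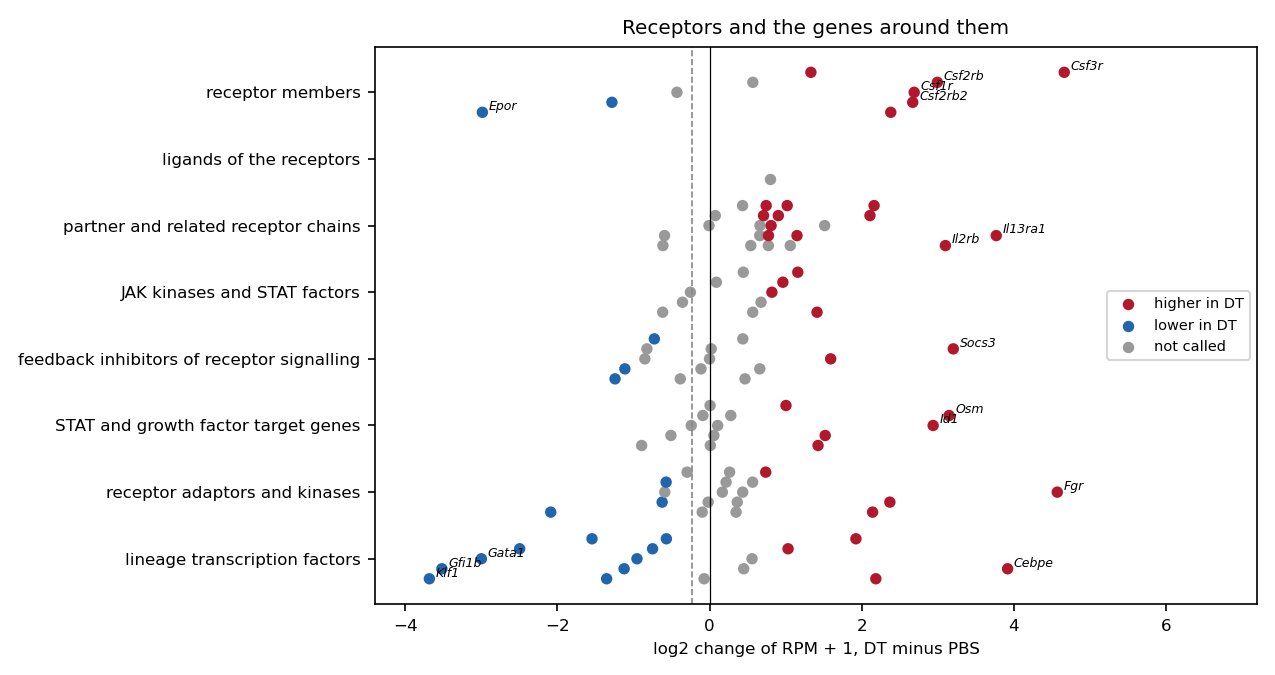
Log2 change of RPM + 1, DT minus PBS, for each tested gene of the receptors and the 7 lists of related genes, coloured by whether limma called it higher (red), lower (blue) or neither (grey) in DT, with small vertical offsets for legibility. The dashed line is the median of all genes at -0.23. Csf3r at 4.67, Fgr at 4.57 and Cebpe at 3.92 lie farthest to the right and Klf1 at -3.68 farthest to the left.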

How the data were processed

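Sorted marrow cells of 3 DT and 4 PBS samples, labelled as biological replicates, were analysed. The labels' protocols give 1 ng of RNA per library, 14 PCR cycles and single 50-base reads. STAR 2.5.3a, Partek and mm10 are named in the submitters' processing notes, while the annotation, counting settings and use of strand were not stated there. The 1 table deposited by the authors is labelled FPKM, yet it holds RPM plus an offset of 0.0001 as far as its values show: 1050 to 1220 genes per library, short and long, sat at 1 common low value, the step of 1 read. Columns summed to 75.4% to 82.2% of the full scaled total. Among values up to 20 steps, only 59.9% to 62.1% lay within 0.02 of a whole number, so a count test was not the main one.

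Genes averaging 1 RPM or more were tested with limma 3.58.1 in R 4.3.3 on log2(RPM + 1), which understates changes of low genes, with an intensity trend and Benjamini-Hochberg adjustment, and the method was tested on simulated data. All 10 receptors passed the filter. Folds are ratios of group mean RPM. Exonic lengths and positions are from GENCODE vM21. Members, lists and pairs were chosen with earlier results of these data known. Genes named are the receptors, up to 4 called genes per pathway list by p, the 2 most abundant markers per cell type and the 3 nearest profiles. Il6st, Il2rg, Gata1, Hmgxb3, Zbtb46, Hbb-bs, Hba-a1, Alas2, Il6, Csf2, the ligands at the floor, Jak2, Stat5a and the mast cell proteases were named after their values were seen. A few genes that the rule names are not reported here. Alternatives covered pseudocount, filter, scaling, trend, weights, replicate block, voom and leaving out each library.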

Additional observations from a re-analysis of the deposited data

Results flagged for a closer look

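The log2 ratio of Csf2rb2 to Csf2rb was -3.24 in PBS replicate 3, against -2.40, -2.50 and -2.48 in PBS replicates 1, 2 and 4, and its gap to the nearest of the others was 0.878 of the range of the 4 libraries. Chance marks about 1 in 20 groups in this way. The DT libraries, at -2.96, -2.95 and -3.03, lay between these values.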

How the results depend on the processing

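The direction of each receptor was the same in all alternatives run, and Csf3r, Csf2ra, Csf2rb, Csf2rb2, Csf1r and Il7r passed the threshold in all 18. The number of receptors lower in DT was 1 with no filter on low values or with voom on estimated reads, and 1 to 3 when a library was left out. Over all genes, the number lower in DT was 1689 with no filter, 1321 with median-ratio scaling, 1497 with TMM scaling and 1215 to 3613 when a library was left out. Same-numbered DT and PBS samples did not deviate together (correlations of 0.0419, 0.0485 and 0.0103), so the numbers were not taken as pairs; with the replicate block 1574 genes were lower in DT, 5 receptors were higher, since Il6ra missed the threshold (limma, adjusted p = 0.0900), and 2 lower, and 1 adaptor or kinase fell.

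For the lists, chosen for these alternatives after seeing the data, 2 ligands were higher and 0 adaptors lower with no filter, 4 feedback inhibitors were higher with median-ratio or TMM scaling, 1 adaptor was lower with median-ratio, TMM or quantile scaling, 3 target genes were higher with a minimum mean of 5 RPM, and 1 partner chain, 1 JAK or STAT gene and 1 target gene were lower with sample weights. When a library was left out, 6 to 12 partner chains were higher and 0 to 1 lower, 0 to 1 JAK or STAT genes and 0 to 1 target genes were lower, and 1 to 5 adaptors were lower. Pf4, the most abundant megakaryocyte marker, did not pass and had a log2 change of -0.19, against 0.032 with median-ratio scaling and -0.69 to 0.13 when a library was left out. The causes were not tested. No receptor pair could pass with 1 library left out, where exact tests cannot reach the threshold. Levels at or under 3 reads, 0.0585 to 0.0904 RPM, cannot be told from absence, which bears on 5 of the 11 ligands.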
